A study of Mus musculus with 36 samples.

Results

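Hyaluronan is made, cut and held at the cell surface by a small group of genes, and 9 of these were followed here in mouse embryonic fibroblasts (MEFs) treated with dexamethasone (Dex). They were chosen by name from the 55487 genes of the count table: the synthases Has1, Has2 and Has3, the precursor enzyme Ugdh, the degradation genes Hyal1, Hyal2 and Cemip, the receptor Cd44, and Tnfaip6, which encodes a hyaluronan-linking protein. The rule uses their names, and the choice was made with earlier results of these data known. After the filter on low counts 8 of the 9 were tested among 15489 genes, and Has3 was described by its counts.

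Hyaluronan is a long sugar polymer of the extracellular matrix. Synthases in the plasma membrane build it from UDP-glucuronic acid, which Ugdh (UDP-glucose dehydrogenase) makes, and from UDP-N-acetylglucosamine, the product of the hexosamine pathway. Fibroblasts secrete it, hyaluronidases and Cemip take part in its breakdown, Cd44 binds it on the cell, and TSG-6, the protein of Tnfaip6, attaches heavy chains of other proteins to it. Dex is a synthetic glucocorticoid that acts through the glucocorticoid receptor (GR, gene Nr3c1).

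RNA-seq compared vehicle with 1 μM Dex for 5 h in primary MEF cultures of 5 GR genotypes. Per the paper, each culture came from a different mouse. The receptor was intact in GRwt/wt, carried a point mutation in the DNA-binding domain in GRD/D, another in the ligand-binding domain in GRL/L, both in GRD+L/D+L, and was disrupted in GRko/ko. Run 1 held 24 libraries (GRwt/wt, GRD/D, GRD+L/D+L and GRko/ko) and run 2 held 12 (GRL/L and further GRwt/wt cultures), with 3 libraries per genotype, treatment and run. The FVB/NJ strain is named in the labels for all libraries, but the methods place the mice behind GRko/ko on a 129 Sv background, so strain and genotype cannot be told apart for GRko/ko. MEFs were grown from mid-gestation embryos without head and organs and are a mixed population. Mutants were compared with GRwt/wt of their own run.

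Library totals ranged from 15280166 to 28662608 counts. Nr3c1 was at 67.2 to 74.3 CPM (counts scaled to library size) in vehicle-treated GRwt/wt of run 1 and at 15.9 to 18.0 CPM in GRko/ko. With vehicle it was at 73.2 to 83.0 CPM in GRD/D and 93.6 to 98.9 CPM in GRD+L/D+L. In run 2 it was at 91.8 to 101 CPM in GRwt/wt and 101 to 105 CPM in GRL/L. Fibroblast markers were present in every group, 12 of 12 at a mean of at least 1 CPM. The summed CPM of 8 macrophage markers differed among vehicle groups: it was 171 to 299.7 in GRwt/wt of run 1, 625 to 691 in GRD/D, 29.9 to 37.8 in GRD+L/D+L, 2494 to 2773 in GRko/ko, 456 to 478 in GRwt/wt of run 2 and 789 to 937 in GRL/L. In bulk RNA, fewer cells of a type and less RNA per cell cannot be told apart.

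Hyal2 and Hyal1 are neighbours in the mm10 genome, at chr9:107567945-107572779 and chr9:107576927-107581710, and the other genes lie apart. Has1 is at chr17:17843323-17855205, Has2 at chr15:56665627-56694539, Has3 at chr8:106870242-106884566 and Ugdh at chr5:65413221-65435949. Cemip is at chr7:83932857-84086502, Cd44 at chr2:102811141-102901665 and Tnfaip6 at chr2:52038009-52056686. Hyal1 exons share 1920 bases with Naa80 and 159 with Hyal3 on the same strand, and Ugdh exons share 158 with Gm43552. Has2 shares 182 exon bases with its antisense gene Has2os, and Has3 shares 352 with Chtf8 on the other strand. Whether counting used strand is not given in the sources used here, so reads in these stretches cannot be assigned with certainty.

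RefSeq (GRCm38.p6) gave the promoter of 7 of the 9 genes. Has2 and Has3 had no entry, so their promoters were not searched. The stretch upstream of the annotated gene is shown for 4 of them whose mRNA changed with Dex in at least 1 genotype, 5′ to 3′ on the strand of the gene, with motif matches in capitals. The Has1 stretch is chr17:17855206-17855438 (minus strand), that of Ugdh chr5:65435950-65436092 (minus), that of Cd44 chr2:102901666-102901915 (minus) and that of Tnfaip6 chr2:52037863-52038008 (plus).
Has1: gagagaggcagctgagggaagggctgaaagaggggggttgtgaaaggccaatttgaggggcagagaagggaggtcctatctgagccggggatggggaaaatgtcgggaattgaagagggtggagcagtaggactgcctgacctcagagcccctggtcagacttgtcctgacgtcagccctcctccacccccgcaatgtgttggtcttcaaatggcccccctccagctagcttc
Ugdh: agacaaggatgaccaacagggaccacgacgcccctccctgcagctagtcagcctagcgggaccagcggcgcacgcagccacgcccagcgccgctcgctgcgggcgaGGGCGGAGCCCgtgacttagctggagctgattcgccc
Cd44: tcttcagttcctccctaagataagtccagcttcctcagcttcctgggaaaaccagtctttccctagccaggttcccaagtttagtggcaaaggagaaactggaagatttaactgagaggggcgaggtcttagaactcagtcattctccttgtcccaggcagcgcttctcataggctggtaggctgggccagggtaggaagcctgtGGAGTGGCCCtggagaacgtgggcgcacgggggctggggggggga
Tnfaip6: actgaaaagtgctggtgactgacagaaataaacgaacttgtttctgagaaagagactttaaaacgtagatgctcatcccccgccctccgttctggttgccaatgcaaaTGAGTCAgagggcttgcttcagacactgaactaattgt
Motifs were searched on both strands in the 250 bases before each RefSeq start. The glucocorticoid half-site AGAACA was in 0 of the 7 promoters and in 16.1% of 32851 promoters of the table. The full glucocorticoid response element, 2 such half-sites facing each other 3 bases apart, was in 0 of 7 and in 0.14% with 1 mismatch allowed. AP-1 (TGANTCA) matched in Tnfaip6 only of the 7, against 6.75% of all promoters. The NF-kB motif (GGG and CC with any 5 bases between) matched in Cd44, Ugdh, Cemip and Hyal2, which is 4 of 7 against 45.8% of all promoters, and the Ugdh capitals are 2 overlapping matches. A match describes letters only, and binding was not measured.

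Dex lowered Has1, Has2 and Cd44 in both sets of GRwt/wt cultures, whereas in GRD/D and GRD+L/D+L it lowered Has1 and Has2 and raised Ugdh. With edgeR's quasi-likelihood test and a Benjamini-Hochberg adjusted p of at most 0.05 over all genes tested, 3 of 8 members passed in GRwt/wt of run 1, all lower, against 13.9% of all genes (6.2% lower). In run 2 of GRwt/wt 6 of 8 passed, all lower, against 31.6% (16.7% lower). GRD/D had 3 of 8 against 11.9%, GRL/L 5 of 8, all lower, against 19.1% (10.4% lower), and GRD+L/D+L 3 of 8 against 5%. In GRko/ko 0 of 8 passed and so did 0% of all genes in edgeR, with 859 genes at an unadjusted p under 0.05, 1 gene called by DESeq2 and 110 called by edgeR without the filter. The median log2 fold change of the 8 members was -0.26 in GRwt/wt of run 1 and -0.51 in run 2, beside 0.00 and -0.01 over all genes. Macrophage markers moved with Dex in GRL/L, where 4 of 8 were lower and 1 higher (median log2 fold change -0.22, summed CPM 789 to 937 with vehicle and 655 to 825 with Dex), and in the other 5 comparisons at most 1 of 8 passed in either direction. Their part in the Dex effects was not tested.

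**Figure D1:**
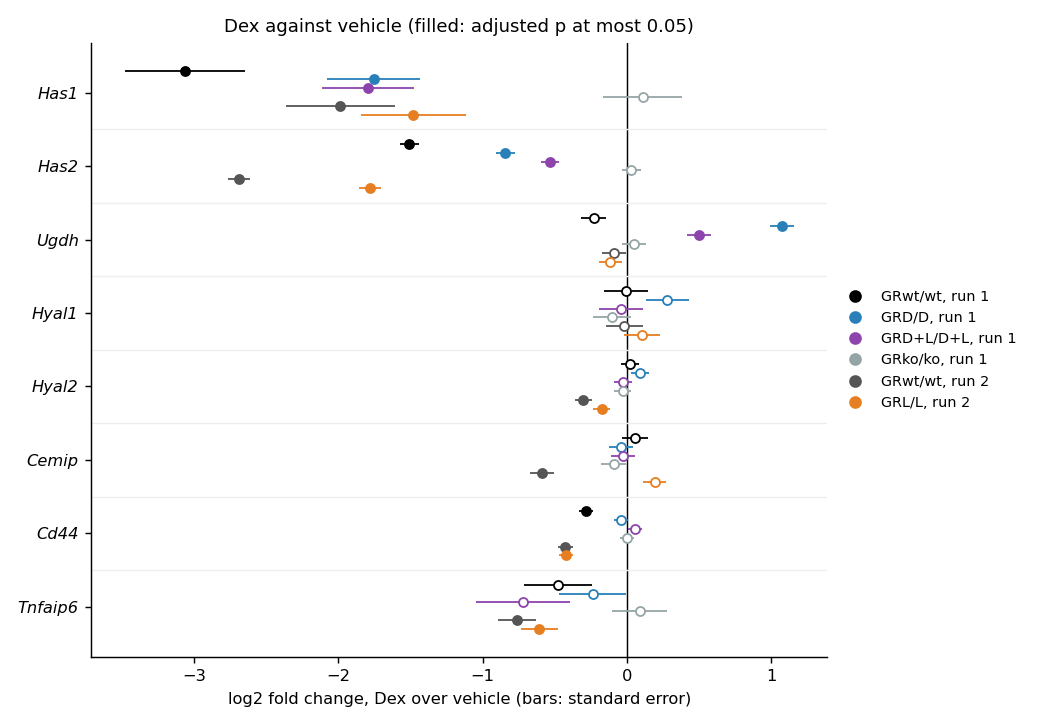
Log2 fold change of Dex over vehicle (x axis) for the 8 genes tested (y axis) in each genotype and run (colours), with bars of 1 standard error and filled points for an adjusted p of at most 0.05. Has1 and Has2 lie left of 0 with filled points in every group but GRko/ko, and Ugdh lies right of 0 with filled points at 1.07 in GRD/D and 0.50 in GRD+L/D+L.

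Has2 encodes a hyaluronan synthase that embryonic development depends on, and it carried nearly all synthase mRNA of these cells. Per kilobase of exon, Has2 made up a mean of 97.4% to 99.6% of the summed synthase level in the 12 groups. That sum was 54.1 ± 3.30 CPM per kb (SD, n = 3) with vehicle and 18.9 ± 0.795 with Dex in GRwt/wt of run 1. In run 2 it was 21.0 ± 2.20 and 3.30 ± 0.220 in GRwt/wt, and 14.1 ± 0.0495 and 4.15 ± 0.494 in GRL/L.

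GRwt/wt of run 1 had Has2 at 235, 211 and 235 CPM with vehicle and at 79.0, 76.8 and 83.8 CPM with Dex. The GRwt/wt cultures of run 2 had 80.6, 85.5 and 98.2 CPM with vehicle and 13.7, 12.7 and 14.5 CPM with Dex. Treated and untreated libraries did not overlap in either run. Has2 fell to 35.2% of vehicle in run 1 (log2 fold change -1.51, SE 0.07, adjusted p = 2.05e-19) and to 15.5% in run 2 (-2.69, SE 0.08, adjusted p = 1.35e-25). The response differed between the runs by -1.18 (SE 0.10, adjusted p = 8.68e-11). The paper states that the experiment was done in 2 parts. Cultures and anything else that differed between the parts cannot be told apart here.

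Has2 also fell in every point mutant, by less than in GRwt/wt of the same run. GRD/D went from 257, 290.4 and 263 CPM to 157, 147 and 148 CPM, a log2 fold change of -0.84 (SE 0.06, adjusted p = 2.09e-12). GRD+L/D+L went from 223, 218 and 225 CPM to 163, 148 and 149 CPM, a log2 fold change of -0.53 (SE 0.06, adjusted p = 1.92e-07). The treatments did not overlap in either mutant, and the changes were 55.9% and 35.4% of the GRwt/wt change on the log2 scale. Their difference from the GRwt/wt response was 0.66 (SE 0.09, adjusted p = 4.68e-06) in GRD/D and 0.97 (SE 0.09, adjusted p = 1.50e-09) in GRD+L/D+L. The response of GRD+L/D+L minus that of GRD/D, a comparison added after the data were seen, was 0.31 (approximate 95% interval 0.13 to 0.49, adjusted p = 0.190) and did not pass.

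GRL/L started lower, at 58.7, 58.7 and 58.8 CPM, and reached 19.3, 16.9 and 15.2 CPM with Dex, again without overlap. The log2 fold change was -1.78 (SE 0.08, adjusted p = 4.45e-20), or 66.1% of that in GRwt/wt of run 2, and the responses differed by 0.91 (SE 0.11, adjusted p = 1.21e-06). This difference was lost when both runs of GRwt/wt were given 1 shared response and a run term (0.25, adjusted p = 0.777). Within run 2 alone it was 0.91 and passed. In GRko/ko, vehicle libraries at 244, 227 and 215 CPM overlapped Dex libraries at 238, 242 and 222 CPM, and the log2 fold change was 0.03 (approximate 95% interval -0.09 to 0.16). That response differed from GRwt/wt of run 1 by 1.54 (SE 0.09, adjusted p = 3.92e-15).

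Has1, a second synthase gene, was far less abundant than Has2 and fell with it. Its counts were 32, 29 and 27 with vehicle and 3, 6 and 2 with Dex in GRwt/wt of run 1, and 15, 32 and 34 against 6, 5 and 8 in run 2. All Dex libraries were below all vehicle libraries of their run. Summed counts scaled to library size gave a ratio of Dex to vehicle of 0.117 in run 1 (exact 95% interval 0.0562 to 0.219) and 0.248 in run 2 (0.142 to 0.413), where the intervals cover counting error only. Fitted log2 fold changes were -3.06 (SE 0.42, adjusted p = 5.84e-07) and -1.99 (SE 0.38, adjusted p = 7.14e-05).

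The point mutants had the same direction for Has1. Counts went from 42, 37 and 38 to 9, 15 and 7 in GRD/D, from 37, 30 and 45 to 11, 6 and 16 in GRD+L/D+L, and from 22, 31 and 26 to 10, 7 and 7 in GRL/L. Treated libraries were below untreated ones in each of these mutants, with log2 fold changes of -1.75 (adjusted p = 0.000170), -1.80 (adjusted p = 0.000163) and -1.48 (adjusted p = 0.00254). Differences from the GRwt/wt response did not pass. They were 1.31 in GRD/D (approximate 95% interval 0.16 to 2.46, adjusted p = 0.344), 1.27 in GRD+L/D+L (0.12 to 2.41, adjusted p = 0.354) and 0.51 in GRL/L (-0.59 to 1.61, adjusted p = 0.789). GRko/ko had 39, 20 and 29 counts with vehicle and 35, 27 and 33 with Dex, which overlap, and its response differed from GRwt/wt by 3.17 (SE 0.51, adjusted p = 2.40e-05).

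Has3, the third synthase gene, was near the limit of detection, with 0 to 14 counts per library. In GRwt/wt of run 1 it had 8, 8 and 4 counts with vehicle and 3, 5 and 1 with Dex, a ratio of 0.420 (exact 95% interval 0.169 to 0.966). The libraries overlapped in all 6 comparisons. In run 2 of GRwt/wt the ratio was 0.988 (0.442 to 2.19), and in the 4 mutants the interval also included 1, so no difference was detectable there at this depth.

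**Figure D2:**
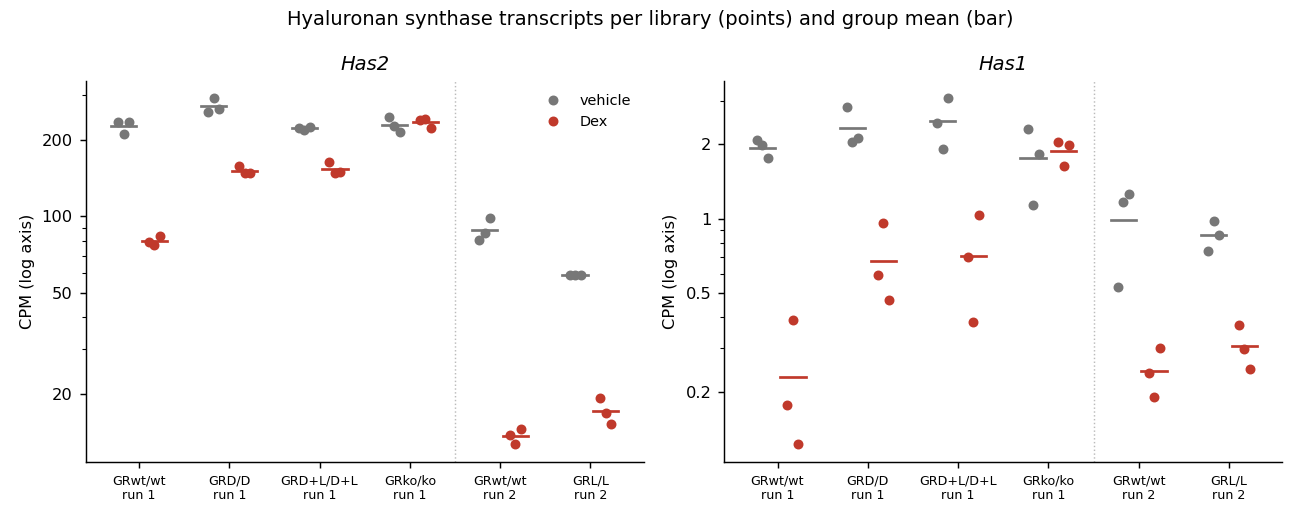
CPM of Has2 (left) and Has1 (right) on log axes in each library (points) with group means (bars), by genotype and run (x axis), vehicle in grey and Dex in red. Has2 with Dex sits below vehicle in every group but GRko/ko, at 76.8 to 83.8 CPM in GRwt/wt of run 1 and 147 to 157 CPM in GRD/D.

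Has2os, the antisense gene over Has2, had 64 summed counts with vehicle and 25 with Dex in GRwt/wt of run 2, where it fell by 1.26 on the log2 scale (SE 0.31, adjusted p = 0.00151). In the other 5 comparisons its value lay between -0.38 and 0.22 and none passed. The 182 exon bases that Has2os shares with Has2 make its counts, and its likeness to Has2 below, uncertain. The genes with the pattern most like that of Has2, by Pearson's r of log2 CPM over the 12 group means, were Tnfrsf11b (0.980), Mmd (0.980), Traf3 (0.976), Eea1 (0.971) and Ier3 (0.971). On this measure Has2os was at 0.929, and of the members Cd44 was at 0.873, Hyal2 at 0.867, Has1 at 0.820, Cemip at 0.399, Hyal1 at 0.340, Ugdh at 0.223 and Tnfaip6 at -0.571. The group means share libraries across genes and include the level difference between the runs.

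Ugdh, which oxidises UDP-glucose to UDP-glucuronic acid, rose in both genotypes that carry the D mutation. In GRD/D it was at 254, 272 and 252 CPM with vehicle and 565, 547 and 527 CPM with Dex. GRD+L/D+L had 292, 299 and 304 CPM with vehicle and 416, 417 and 434 CPM with Dex. All treated libraries were above all untreated ones in both, at 210.5% (log2 fold change 1.07, SE 0.08, adjusted p = 2.97e-12) and 142% of vehicle (0.50, SE 0.08, adjusted p = 5.35e-05).

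Ugdh in GRwt/wt of run 1 was at 212, 309.9 and 193 CPM with vehicle and 207, 204 and 198 CPM with Dex, a log2 fold change of -0.23 (SE 0.08, adjusted p = 0.0664). Vehicle replicate 2 stood above all other GRwt/wt libraries. Without it the value was 0.00, adjusted p = 0.995. Without vehicle replicate 1 or 3 the fall passed (-0.31, adjusted p = 0.0198 and -0.36, adjusted p = 0.00122). It also passed without the filter on low counts (-0.22, adjusted p = 0.00136) and with the run term (-0.16, adjusted p = 0.0412), so the call depended on the libraries and on the fit.

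The Ugdh response differed from that of GRwt/wt of run 1 by 1.30 (SE 0.12, adjusted p = 5.33e-10) in GRD/D and by 0.73 (SE 0.12, adjusted p = 5.73e-05) in GRD+L/D+L. Leaving out each library in turn kept both calls, with values of 1.07 to 1.43 and 0.50 to 0.86. The response of GRD+L/D+L differed from that of GRD/D by -0.57 (SE 0.12, adjusted p = 0.0384), in the comparison added after the data were seen and with 0.0775% of all genes called. That call was lost in 3 of 6 alternative fits and without any one of 11 of the 12 libraries (all but GRD/D vehicle replicate 3), with values of -0.61 to -0.54 over the libraries left out.

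In run 2 Ugdh was at 241, 226 and 231 CPM with vehicle and 231, 216 and 210.1 CPM with Dex in GRwt/wt. GRL/L had 219.8, 232 and 240.4 CPM with vehicle and 212, 217 and 210.4 CPM with Dex. Neither log2 fold change passed, at -0.09 (adjusted p = 0.446) and -0.11 (adjusted p = 0.402), and the difference between them was -0.02 (approximate 95% interval -0.25 to 0.20). GRko/ko overlapped between treatments, with 184, 186 and 184 CPM and 204, 189.8 and 179.7 CPM, and a log2 fold change of 0.05 (approximate 95% interval -0.12 to 0.22).

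Gfpt2, a gene for the first enzyme of the hexosamine pathway, was picked out after its values were seen. It rose in GRD/D from 39.4, 37.1 and 41.9 CPM to 56.9, 63.8 and 62.8 CPM and in GRD+L/D+L from 47.3, 44.1 and 47.1 CPM to 80.1, 73.8 and 77.7 CPM. The log2 fold changes of Gfpt2 were 0.63 (SE 0.07, adjusted p = 1.28e-08) and 0.74 (SE 0.07, adjusted p = 3.66e-10). In GRwt/wt they were 0.10 (adjusted p = 0.433) in run 1 and 0.10 (adjusted p = 0.300) in run 2, and the response differed from run 1 by 0.53 (adjusted p = 0.000638) in GRD/D and 0.64 (adjusted p = 3.05e-05) in GRD+L/D+L. Gfpt1, the other gene for this step and also picked out later, fell in GRwt/wt of run 2 (-0.27, adjusted p = 1.87e-06), GRD/D (-0.17, adjusted p = 0.00458) and GRL/L (-0.13, adjusted p = 0.0179). Of the other precursor supply genes on the list, Hk2, Ugp2 and Uap1 also passed as lower in GRD/D, and Hk2 in GRD+L/D+L. Gfpt2 was the only supply gene that passed as higher in these mutants. Uap1 also fell in GRwt/wt of run 1, while Hk2, Uap1 and Gnpnat1 rose in GRwt/wt of run 2.

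**Figure D3:**
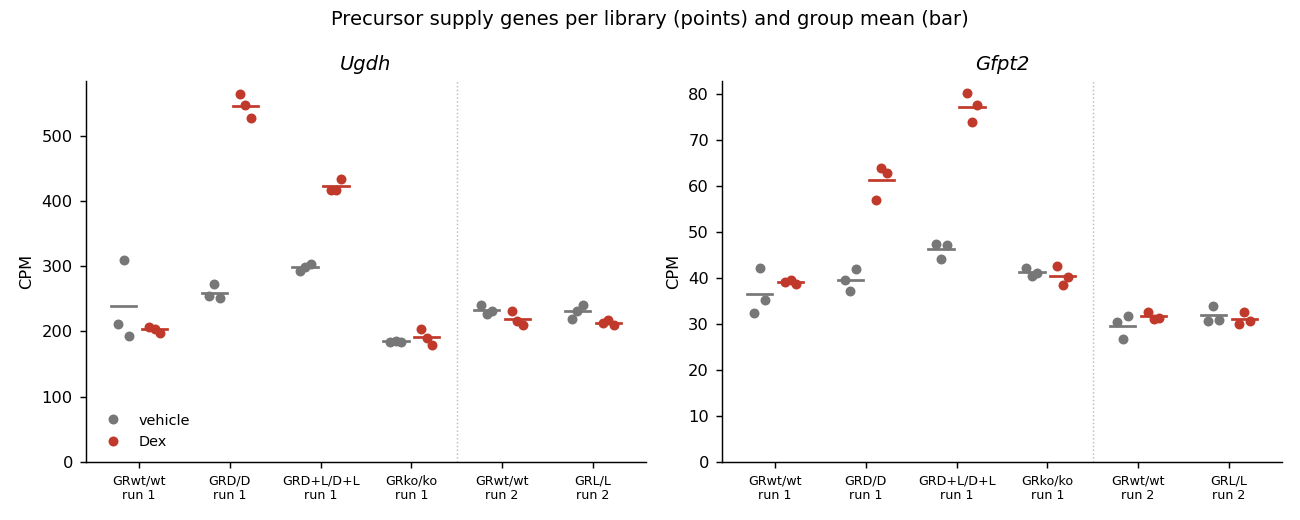
CPM of Ugdh (left) and Gfpt2 (right) in each library (points) with group means (bars), by genotype and run (x axis), vehicle in grey and Dex in red. Dex libraries stand above vehicle libraries for both genes in GRD/D and GRD+L/D+L, and the GRwt/wt vehicle point at 309.9 CPM of Ugdh is replicate 2.

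Among the degradation genes, Cemip, which encodes a hyaluronan-binding protein needed for breakdown in skin fibroblasts, passed the Dex test in 1 group. In GRwt/wt of run 2 it went from 129, 125 and 155 CPM to 74.1, 97.5 and 101 CPM without overlap, a log2 fold change of -0.59 (SE 0.08, adjusted p = 5.63e-07). GRL/L of the same run had 132, 123 and 123 CPM with vehicle and 159, 133 and 140.1 CPM with Dex. Here all Dex libraries were above all vehicle libraries, but the change of 0.19 did not pass (adjusted p = 0.103; 0.0482 with a replicate block and 0.0111 without the filter on low counts). The responses of GRL/L and GRwt/wt differed by 0.78 (SE 0.12, adjusted p = 4.15e-05), a call lost with 1 GRwt/wt response for both runs (0.47, adjusted p = 0.120).

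Cemip in GRwt/wt of run 1 was at 80.8, 99.5 and 89.1 CPM with vehicle and 97.4, 89.4 and 93.5 CPM with Dex, which overlap, and the log2 fold change was 0.06 (adjusted p = 0.761). The responses of the GRwt/wt runs differed by -0.64 (SE 0.12, adjusted p = 0.000357). In the mutants of run 1 the value lay between -0.09 and -0.03 and none passed.

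Hyal2, a hyaluronidase anchored at the cell surface, passed the Dex test in run 2. GRwt/wt went from 34.9, 34.5 and 31.6 CPM to 29.7, 27.6 and 24.8 CPM, a log2 fold change of -0.30 (SE 0.06, adjusted p = 0.000155). GRL/L went from 31.8, 32.7 and 30.7 CPM to 29.2, 27.3 and 27.8 CPM, a log2 fold change of -0.17 (SE 0.06, adjusted p = 0.0372). Neither genotype showed overlap, but the GRL/L call was lost in 3 of 6 alternative fits and without Dex replicate 2 or 3 or vehicle replicate 1 or 2. The difference between the GRwt/wt runs was -0.32 (SE 0.09, adjusted p = 0.0138) and without GRwt/wt Dex replicate 1 it no longer passed (-0.25, adjusted p = 0.0824), nor when replicate 6 with Dex was dropped (-0.26, adjusted p = 0.0598). In run 1 the Hyal2 value lay between -0.03 and 0.09 and none passed.

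Hyal1, a lysosomal hyaluronidase gene, had 62 to 215 counts per library. Its log2 fold change with Dex lay between -0.10 and 0.28 over the 6 comparisons and none passed, although all Dex libraries lay above all vehicle libraries in GRD/D and below them in GRko/ko. The exon bases it shares with Naa80 make these counts uncertain.

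Cd44, the main hyaluronan receptor, was the most abundant of the 9 genes per kilobase in all 6 vehicle groups. In GRwt/wt of run 1 it was at 931, 944 and 942 CPM with vehicle and 784, 772 and 759 CPM with Dex. Run 2 had 287, 267 and 283 CPM and 211, 199 and 213 CPM. Treatments did not overlap in either run, and the log2 fold changes were -0.28 (SE 0.05, adjusted p = 3.13e-05) and -0.43 (SE 0.05, adjusted p = 7.07e-09).

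GRL/L went from 266, 275 and 279 CPM to 218, 192 and 202 CPM of Cd44, a log2 fold change of -0.42 (SE 0.05, adjusted p = 1.42e-08) without overlap. Its response minus that of GRwt/wt was 0.00 (approximate 95% interval -0.13 to 0.14). In GRD/D the vehicle values of 871, 899 and 919 CPM overlapped the Dex values of 936, 859 and 824 CPM. In GRD+L/D+L the Dex values of 867, 841 and 868 CPM were above the vehicle values of 815, 824 and 839 CPM. Neither change passed (-0.04, adjusted p = 0.681, and 0.06, adjusted p = 0.707).

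The Cd44 response differed from that of GRwt/wt of run 1 by 0.34 (SE 0.07, adjusted p = 0.00128) in GRD+L/D+L and by 0.29 (SE 0.07, adjusted p = 0.00434) in GRko/ko. For GRD/D the difference was 0.24 (SE 0.07, adjusted p = 0.0347). The GRD/D call was lost with a replicate block (adjusted p = 0.0513) and without any one of 9 of the 12 libraries, namely all 6 of GRwt/wt, GRD/D Dex replicates 1 and 2 and GRD/D vehicle replicate 1, with values of 0.19 to 0.29 over the libraries left out.

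Tnfaip6 fell in both genotypes of run 2. GRwt/wt had 9.88, 12.1 and 10.1 CPM with vehicle and 6.38, 6.54 and 6.05 CPM with Dex, a log2 fold change of -0.76 (SE 0.13, adjusted p = 1.29e-05). GRL/L had 13.1, 9.74 and 10.4 CPM with vehicle and 7.004, 8.13 and 6.75 CPM with Dex, a log2 fold change of -0.61 (SE 0.13, adjusted p = 0.000361). Treatments did not overlap in either genotype. Run 1 libraries held 13 to 79 counts, and there the log2 fold change lay between -0.72 and 0.09 with none passed. In GRwt/wt of run 1 all Dex libraries were nevertheless below all vehicle libraries. With 1 GRwt/wt response for both runs and a run term, the Tnfaip6 fall passed (-0.69, adjusted p = 8.96e-06).

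**Figure D4:**
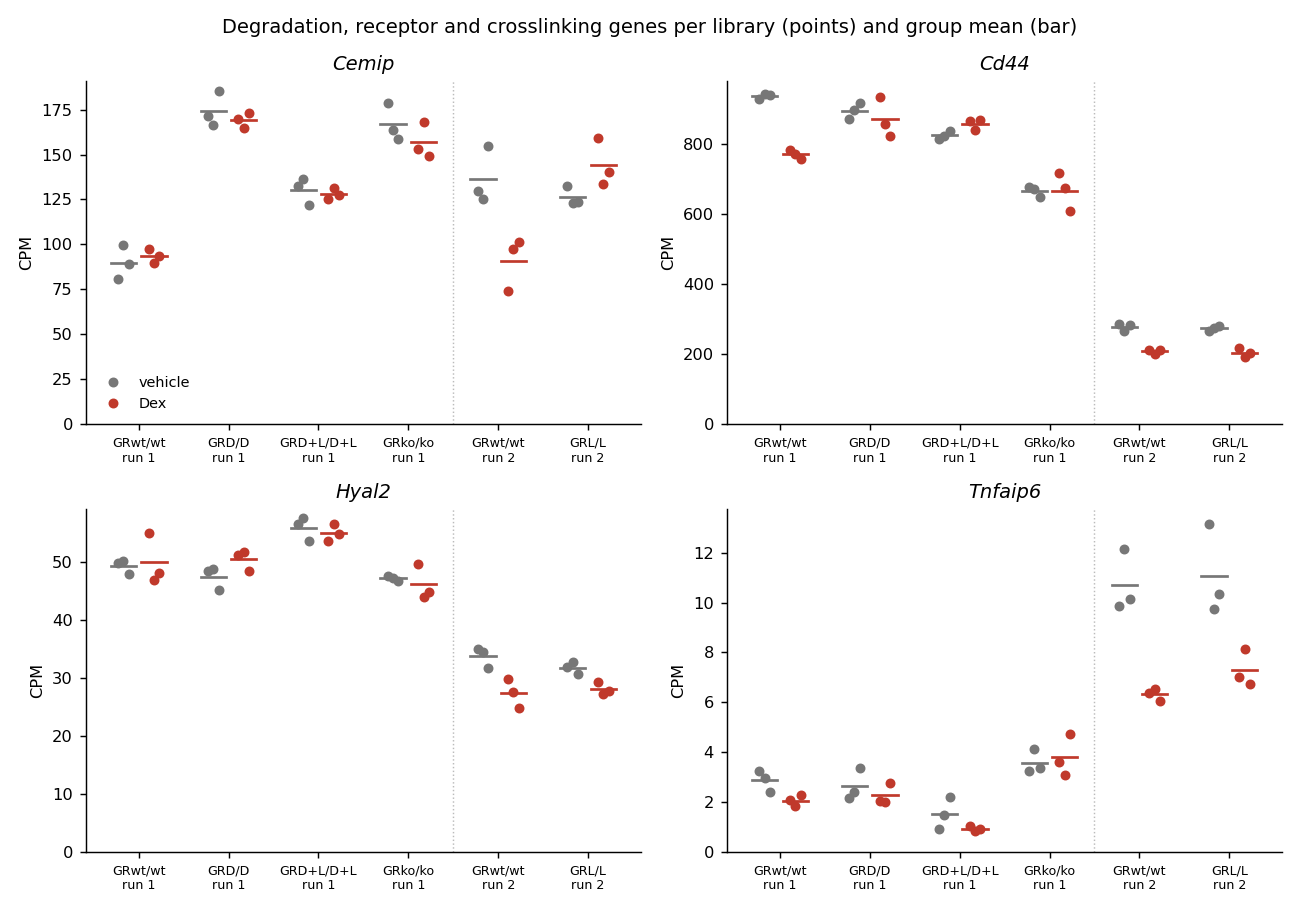
CPM of Cemip, Cd44, Hyal2 and Tnfaip6 in each library (points) with group means (bars), by genotype and run (x axis), vehicle in grey and Dex in red. In GRwt/wt of run 2, where 31.6% of all genes passed the Dex test, Dex libraries lie below vehicle libraries for the 4 genes shown. Those of Hyal1, Ugdh and Has3, not shown here, overlap. The share of all genes that separate in this way was not computed. Vehicle Cd44 is at 267 to 287 CPM in GRwt/wt of run 2 against 931 to 944 CPM in run 1.

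The tests of a different Dex response passed for 3 of 8 members in GRD/D (Cd44, Has2 and Ugdh) against 3.29% of all genes, and for the same 3 in GRD+L/D+L against 3.23%. In GRL/L 2 of 8 passed (Has2 and Cemip) against 1.85%. GRko/ko had 3 of 8 (Has1, Cd44 and Has2) against 8.48%, and 3 of 8 differed between the GRwt/wt runs (Hyal2, Has2 and Cemip) against 7.09%. The comparisons of run 1 share the GRwt/wt libraries, and each response difference uses the libraries of the Dex effects above.

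Without Dex, Cd44 was highest per kilobase in GRwt/wt of run 1 at 139 ± 1.03 CPM per kb (SD, n = 3), followed by Has2 at 53.6 ± 3.32, Ugdh at 35.3 ± 9.28, Hyal2 at 14.96 ± 0.369 and Cemip at 7.34 ± 0.766. Tnfaip6 at 1.67 ± 0.250 and Hyal1 at 1.48 ± 0.195 overlapped, and Has1 at 0.429 ± 0.0371 and Has3 at 0.0693 ± 0.0249 were lowest. In GRwt/wt of run 2 the order was Cd44 at 41.2 ± 1.58, Ugdh at 34.5 ± 1.10, Has2 at 20.8 ± 2.14, Cemip at 11.2 ± 1.32 and Hyal2 at 10.2 ± 0.544, of which Cemip and Hyal2 overlapped. Tnfaip6 was at 6.27 ± 0.726, Hyal1 at 1.42 ± 0.128, Has1 at 0.218 ± 0.0883 and Has3 at 0.0282 ± 0.0106. Run and cultures cannot be told apart, and vehicle levels were not tested between runs.

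Cemip was higher in vehicle libraries of the 3 run 1 mutants than in GRwt/wt of the same run. Against 80.8 to 99.5 CPM in GRwt/wt, it was at 166 to 185 CPM in GRD/D, 122 to 136 CPM in GRD+L/D+L and 159 to 179 CPM in GRko/ko, with no overlap. The log2 differences were 0.96 (SE 0.09, adjusted p = 3.43e-10), 0.54 (SE 0.09, adjusted p = 8.01e-06) and 0.90 (SE 0.09, adjusted p = 5.00e-11). These 3 comparisons share the GRwt/wt libraries of run 1. GRwt/wt of run 2 was at 125 to 155 CPM with vehicle, which overlaps GRD+L/D+L, and levels were not tested between runs. In GRL/L the log2 difference from GRwt/wt of run 2 was -0.11 (SE 0.08, adjusted p = 0.447). All 8 macrophage markers passed in each mutant, higher in GRD/D, GRL/L and GRko/ko and lower in GRD+L/D+L, and their part in the Cemip levels was not tested.

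Vehicle Has2 was lower in GRL/L than in GRwt/wt of run 2, with all GRL/L libraries below and a log2 difference of -0.58 (SE 0.07, adjusted p = 6.16e-08). With the run term this was -0.35, adjusted p = 0.0912. In GRD/D Has2 was higher by 0.25 (SE 0.06, adjusted p = 0.00656), a call lost without GRD/D vehicle replicate 2 (0.19, adjusted p = 0.0830), without GRwt/wt vehicle replicate 2 (0.20, adjusted p = 0.0704) or with the run term (0.00, adjusted p = 0.997). Log2 differences of Has2 in GRD+L/D+L and GRko/ko were -0.03 (adjusted p = 0.746) and 0.01 (adjusted p = 0.907).

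Vehicle Cd44 was at 678, 671 and 649.7 CPM in GRko/ko, a log2 difference from GRwt/wt of -0.50 (SE 0.05, adjusted p = 6.36e-11), and was also lower in GRD+L/D+L (-0.19, SE 0.05, adjusted p = 0.00305). Ugdh was lower in GRko/ko (-0.37, SE 0.08, adjusted p = 0.000456) and higher in GRD+L/D+L (0.32, SE 0.08, adjusted p = 0.00282), the latter lost without GRwt/wt vehicle replicate 3 (0.19, adjusted p = 0.0703). For GRD/D the Ugdh difference of 0.12 (adjusted p = 0.421) did not pass, but without the high GRwt/wt vehicle replicate 2 it did (0.35, adjusted p = 9.40e-06). Hyal1 was higher in GRko/ko, at 8.70, 8.39 and 8.15 CPM against 5.90, 6.10 and 4.74 CPM, by 0.59 (SE 0.14, adjusted p = 0.000751). In GRD+L/D+L Hyal2 was higher by 0.18 (SE 0.06, adjusted p = 0.0194), a call lost without GRD+L/D+L vehicle replicate 1 or 2 or GRwt/wt vehicle replicate 3 and in 2 of 6 alternative fits. Tnfaip6 was lower there (-0.91, SE 0.25, adjusted p = 0.00529), which was lost without GRD+L/D+L vehicle replicate 1 (-0.66, adjusted p = 0.0602).

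In all, vehicle tests passed for 2 of 8 members in GRD/D against 9.55% of all genes, 1 of 8 in GRL/L against 11.3%, 5 of 8 in GRD+L/D+L against 29.9% and 4 of 8 in GRko/ko against 45.7%. Mesothelial markers differed too in GRD+L/D+L, where 6 of 7 were higher and 1 lower (summed CPM 53.7 to 62.9 against 38.7 to 40.2). In GRko/ko 5 of 7 were higher and 1 lower, with a summed CPM of 40.7 to 42.0 against the same 38.7 to 40.2. Cartilage markers were higher in GRko/ko, 5 of the 5 tested (summed CPM 179.9 to 559 against 18.9 to 21.1). In GRL/L 3 of the 5 tested were higher. Fibroblast markers also moved, with 7 of 12 lower in GRD+L/D+L (median log2 difference -0.29), 4 higher and 6 lower in GRko/ko, 2 lower in GRL/L and 1 higher in GRD/D. Their part in these vehicle differences was not tested.

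**Figure D5:**
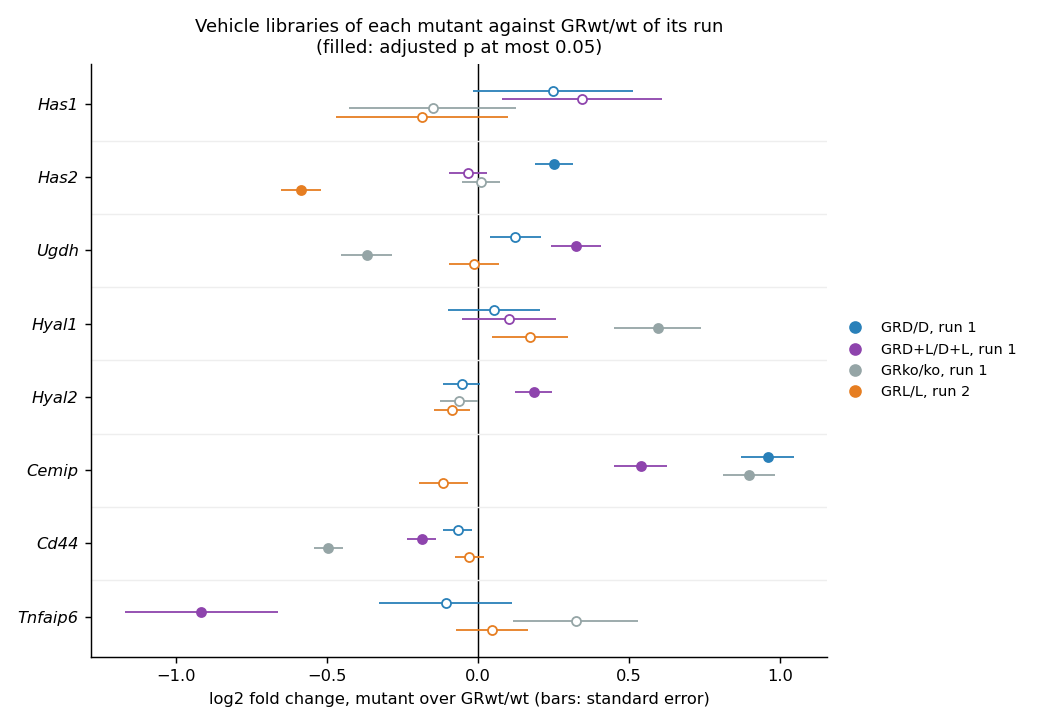
Log2 difference between vehicle libraries of each mutant and GRwt/wt of its run (x axis) for the 8 genes tested (y axis), with bars of 1 standard error and filled points for an adjusted p of at most 0.05. Cemip is at 0.54 to 0.96 in the run 1 mutants, Cd44 at -0.50 in GRko/ko and Has2 at -0.58 in GRL/L.

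Of 36 further genes of hyaluronan metabolism and binding, 28 were tested. In GRwt/wt 4 rose and 1 fell with Dex in run 1, against 13.9% of all genes called, and 10 rose and 4 fell in run 2, against 31.6%. GRD/D had 4 higher and 5 lower against 11.9%, GRL/L 4 and 5 against 19.1%, GRD+L/D+L 1 and 1 against 5%, and GRko/ko 0 and 0 against 0%. Their median log2 fold change was 0.00 in GRwt/wt of run 1 and 0.10 in run 2, beside 0.00 and -0.01 over all genes.

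Ptx3 encodes a partner of TSG-6 in matrix assembly. In GRwt/wt of run 1 it went from 16.2, 21.0 and 12.7 CPM to 51.2, 54.3 and 56.1 CPM, a log2 fold change of 1.70 (SE 0.11, adjusted p = 6.82e-15). Ptx3 also rose in GRD/D, by 1.19 (adjusted p = 1.30e-10), while in GRD+L/D+L the change of 0.45 (adjusted p = 0.0764) did not pass and differed from that of GRwt/wt by -1.25 (adjusted p = 1.43e-05). In run 2 Ptx3 rose by 0.74 (adjusted p = 1.55e-09) in GRwt/wt and 0.60 (adjusted p = 2.64e-07) in GRL/L.

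Vcan encodes versican, a large proteoglycan that binds hyaluronan. It rose in GRwt/wt by 0.53 (SE 0.08, adjusted p = 1.57e-06) in run 1 and 1.15 (SE 0.08, adjusted p = 4.32e-15) in run 2, and in GRL/L by 0.93 (adjusted p = 3.03e-12). In GRD/D Vcan was at 479, 544 and 567 CPM with vehicle and 569, 539.8 and 569 CPM with Dex, a change of 0.08 (adjusted p = 0.590) that differed from GRwt/wt by -0.45 (adjusted p = 0.00850). In GRD+L/D+L all Dex libraries were above all vehicle libraries (means of 341 and 302 CPM). Neither that change nor its difference from GRwt/wt passed.

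Lyve1, a hyaluronan receptor gene, had 16 summed counts with vehicle and 106 with Dex in GRwt/wt of run 1, a ratio of 6.19 (exact 95% interval 3.64 to 11.2). Run 2 had 7 and 172, a ratio of 26.0 (12.3 to 65.6). It was 5.48 (2.74 to 12.1) in GRD/D and 26.2 (11.7 to 72.6) in GRL/L, where the rise passed in both (adjusted p = 0.000876 and 4.33e-10). In GRD+L/D+L the Lyve1 ratio was 0.629 (0.266 to 1.42), and its response differed from GRwt/wt by -3.26 (adjusted p = 0.00751). Layn, another hyaluronan receptor gene, was picked out after its values were seen and rose by 0.71 (adjusted p = 5.34e-12) and 0.82 (adjusted p = 5.40e-15) in the GRwt/wt runs. Its change was 0.06 (adjusted p = 0.605) in GRD/D, and the difference from GRwt/wt was -0.65 (adjusted p = 9.57e-07). Hyal3, with 1 to 18 counts per library, had a log2 fold change of -1.37 (SE 0.49, adjusted p = 0.0458) in GRL/L, which was lost in 3 of 6 alternative fits.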

How the data were processed

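The authors deposited 1 table of raw gene counts, whole numbers without normalization, for the 36 MEF libraries. Per the labels these were TruSeq libraries of total RNA, and the submitters' processing notes name HISAT2 2.1.0, featureCounts 2.0.0 and mm10. The annotation and strand setting are not given in the sources used here. Groups were taken from the labels (genotype, treatment and run). The 15489 genes kept by filterByExpr held 99.93% of all counts and were fitted with edgeR 4.0.16 in R 4.3.3 (TMM, 12 group terms, quasi-likelihood test, Benjamini-Hochberg adjustment over all genes). Totals of 15280166 to 28662608 counts set the precision, and the biological coefficient of variation was 0.0513. Each standard error is derived from the fold change and its F statistic (size over root F), and approximate 95% intervals span 1.96 of them either side. CPM divided by exon length gave CPM per kb. Positions come from GENCODE annotation of mm10, and 55141 of 55487 identifiers had a symbol. Alternatives were DESeq2 1.42.0, which the study used, RLE scaling, no filter, a run term, libraries of 1 run, a replicate block, a limit of 1 on the absolute log2 fold change, and each library left out. The members, lists and tests were chosen with earlier results of these data known. Named beside the members were list genes that passed and moved by 1 or more on the log2 scale with Dex, Has2os and the 5 genes most like Has2. Gfpt1, Gfpt2, Hk2, Ugp2, Uap1, Gnpnat1 and Layn were picked out after their values were seen. Within groups no libraries were near copies (median chi-square 1.38 to 5.95 times sampling noise over 36 pairs). The fits were also run on simulated counts with planted changes. These covered neither low-count genes nor changes as small as the smallest called here, and held no level differences between genotypes or runs.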

Additional observations from a re-analysis of the deposited data

Results flagged for a closer look

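These results were picked because a test of the difference between 2 Dex responses passed (edgeR's quasi-likelihood test, Benjamini-Hochberg adjusted p of at most 0.05), and their values are log2 differences. Relative to GRwt/wt of run 1 the response differed in GRD/D for Cd44 (0.24), Has2 (0.66) and Ugdh (1.30), and in GRD+L/D+L for Cd44 (0.34), Has2 (0.97) and Ugdh (0.73). In GRko/ko it differed for Has1 (3.17), Cd44 (0.29) and Has2 (1.54). Relative to GRwt/wt of run 2 the GRL/L response differed for Has2 (0.91) and Cemip (0.78). Between the GRwt/wt runs, run 2 minus run 1, it differed for Hyal2 (-0.32), Has2 (-1.18) and Cemip (-0.64). The Ugdh response of GRD+L/D+L minus that of GRD/D was -0.57, in the comparison chosen after the data were seen.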

How the results depend on the processing

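The member fold changes that passed, and some further member values given in the text, were recomputed under the other fits. Of these recomputed values 372 kept their direction and side of the threshold, 12 no longer passed, 8 newly passed and 7 changed sign. With 1 library left out these numbers were 494, 33, 4 and 15. Genes beside the members are not in these numbers. With the run term, which gives GRwt/wt of both runs 1 shared response, 7 members passed with Dex in GRwt/wt, 0 for the GRL/L response, 1 and 0 for vehicle GRD/D and GRL/L, and 0 for GRD+L/D+L minus GRD/D, against 5207, 115, 1958, 1944 and 0 of 15489 genes in the same fits. The sign changed with the run term for Cemip with Dex in GRwt/wt of run 1 (-0.28), the GRL/L response differences of Cd44 (-0.0701) and Ugdh (0.0447), and vehicle Has2 in GRD/D (-0.00213) and GRko/ko (-0.24). Vehicle Has2 in GRko/ko was -0.00888 with RLE scaling and -0.00888 in DESeq2. With the added limit of 1 on the absolute log2 fold change, members passed were 2 in GRwt/wt of run 2, 2 in GRL/L and 1 in GRD+L/D+L with Dex, 1, 0 and 0 for the GRD/D, GRL/L and GRD+L/D+L responses, 1 between the GRwt/wt runs, 0 for GRD+L/D+L minus GRD/D and 0 in each vehicle comparison. GRD+L/D+L minus GRD/D had 0 with RLE, 2 without the filter and 0 with 1 run only. The causes were not tested. With 1 library left out in turn, members passed ranged from 0 to 1 for GRD+L/D+L minus GRD/D, 1 to 2 for vehicle GRD/D and 3 to 5 for vehicle GRD+L/D+L. Values that changed sign ranged with Dex from -0.36 to 0.00158 (Ugdh) and -0.0129 to 0.13 (Cemip) in GRwt/wt of run 1, -0.0923 to 0.00391 (Cd44) in GRD/D, and -0.13 to 0.36 (Has1) and -0.00550 to 0.0827 (Has2) in GRko/ko, for the GRL/L response from -0.0485 to 0.0406 (Cd44) and -0.0607 to 0.0121 (Ugdh), and with vehicle from -0.00698 to 0.35 (Ugdh, GRD/D) and -0.0462 to 0.0472 (Has2, GRko/ko). Same-numbered libraries did not deviate together (r from -0.0787 to 0.116 over 18 pairs). This cannot tell whether they came from the same culture, and the main fit used no pairing. The p-values rest on the spread among libraries of a group. The paper states that each culture came from a different mouse, but the library titles give replicate numbers only. Whether that spread includes the spread between mice therefore cannot be checked here, which matters most for the vehicle comparisons of genotypes. A replicate block changed 2 of these member calls, Cemip in GRL/L (0.19, adjusted p = 0.0482) and the Cd44 response of GRD/D (0.24, adjusted p = 0.0513). Counts limit Has1, Has3 and Tnfaip6 of run 1 most.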
